A study of Rattus norvegicus with 12 samples.

Results

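High-score spots are the spots of 2 rat liver sections in which a set of collagen, contractile, vessel wall and epithelial genes, among them the keratins Krt8 and Krt18, took the largest share of all transcripts. Both sections, called A and B, came from liver of healthy male Wistar rats with no treatment, and were measured with the Visium spatial 3′ v1 assay, which captures polyadenylated RNA on an array of barcoded spots. The age of the Wistar rats was not given in the sources used here. A spot is a small region that holds several cells or parts of cells, so its transcripts are a mixture. The study's text speaks of 2 Wistar rats, but the labels do not tie the sections to separate animals, so the spread between A and B may be technical. For each spot with at least 2000 UMIs (unique molecular identifiers, each counting 1 captured transcript) a score was taken as the summed UMIs per 10000 of a fixed set of genes, and the 5% of spots with the highest score in each section were the high-score spots. They numbered 121 of 2413 kept spots in section A and 118 of 2355 in section B, which makes 239 of 4768 kept spots and of 4841 spots in all.

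The genes of the score came from the tissues that meet in a portal tract. A portal tract is the connective tissue sheath at the corner of a liver lobule that carries a branch of the portal vein, a branch of the hepatic artery and a bile duct, together with lymphatic vessels, fibroblasts and immune cells. The artery has a coat of smooth muscle that makes contractile proteins and elastin, the duct is lined by cholangiocytes, epithelial cells rich in keratins and EpCAM, and the sheath is built of fibrillar collagen laid down by portal fibroblasts. Hepatocytes themselves hold the simple keratins Krt8 and Krt18, and central veins, larger vessels and the liver capsule also contain collagen and contractile cells. Positions of the spots and the tissue images were not used here, so the anatomy of a spot was judged from its transcripts alone.

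The score named 12 genes, of which 11 are named in the gene list, because Col1a2 is not among its symbols. The genes were Col1a1 and Col3a1 (fibrillar collagens), Acta2, Tagln and Myl9 (contractile proteins of smooth muscle), Eln (elastin), Mgp (matrix Gla protein, abundant in vessel walls), and the epithelial genes Krt8, Krt18, Epcam and Anxa4. Of these, Col1a1, Acta2, Eln and Epcam were taken as markers of portal tracts and vessels. Collagen and contractile cells also lie around central veins and in the capsule, so Col1a1 and Acta2 do not mark portal tracts alone. The study reports Col3a1 as concentrated near central veins, and Epcam and Anxa4 as periportal in its spatial data. In section A the high-score spots had scores of 10.3356 to 36.2319 with a median of 11.5009, and the other spots had a median of 5.59. In section B the range was 10.5502 to 36.1591 with a median of 12.1171, against 5.67 in the other spots. There was no gap at the limit: the highest score outside was 10.3245 in section A, where the lowest inside was 10.3356, and 10.53 in section B, where the lowest inside was 10.5502.

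High-score spots were shallower than the rest. Their median UMI count was 10586 in section A against 14056.5 in the other spots, and 9857.5 against 14574 in section B. They held a median of 2281 and 2259.5 detected genes, against 2634 and 2715. Of the high-score spots, 20 in section A and 25 in section B had under 5000 UMIs. Mitochondrial transcripts made up 3.77% and 2.92% of their UMIs, against 3.57% and 2.88% in the other spots, and the haemoglobin genes 0.374% and 0.268%, against 0.269% and 0.226%. When each spot was thinned to 5000 UMIs and the spots were chosen again, shallower spots being left out, 52 genes were raised, of which 14 were among the 181 given below. Fewer UMIs remain after thinning, so that fewer genes reach the minimum, and values from thinned spots are given below for part of the lists and genes. Of the barcodes, which name array positions and not cells, 1793 occurred in both sections, and 4 of them were high-score spots in both.

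The keratins carried most of the score. Krt8 and Krt18 made up 65.7% of the rule-gene UMIs of high-score spots in section A and 61.1% in section B, which is less than in the other spots (72.1% and 70.7%). Col3a1 followed at 13.9% and 14.1%, Mgp at 5.95% and 7.55%, and the contractile genes together at 5.47% and 5.29%. Epcam gave 3.45% and 4.58%, and Col1a1, Acta2 and Eln gave under 1% each. A UMI of a contractile gene was found in 48 of 121 high-score spots of section A (39.7%) and in 47 of 118 of section B (39.8%), against 20.7% and 22.9% of the other spots. In section A 45 high-score spots (37.2%) and in section B 29 (24.6%) held no UMI of Epcam, Acta2, Tagln, Myl9, Eln or Mgp, against 54.5% and 51.9% of the other spots. These genes were part of the rule, and many other spots held them as well, so they do not show which spots are portal tracts or vessels, and the text calls the spots by their score.

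**Figure D1:**
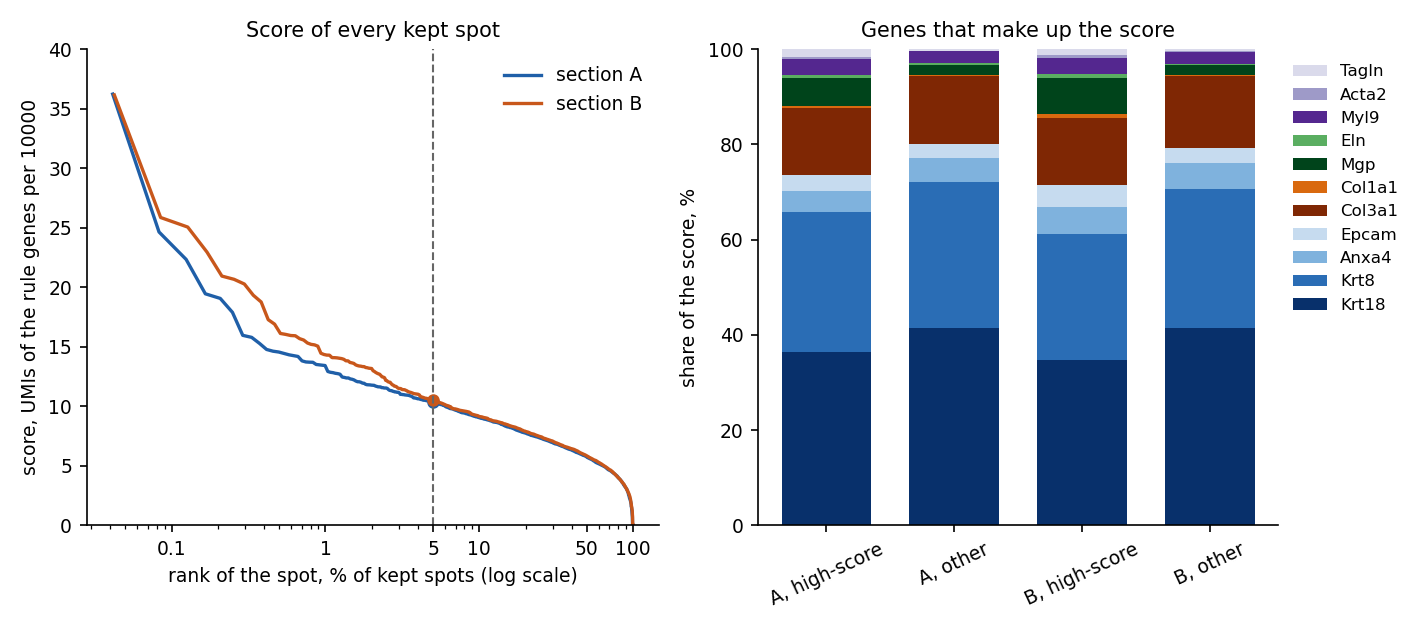
Left, score of every kept spot (UMIs of the rule genes per 10000, y axis) against its rank in percent of kept spots (x axis, log scale) for section A (blue) and section B (orange), with the limit of 5% as a dashed line and the lowest high-score spot as a point. Right, share of the score in percent given by each rule gene in high-score and other spots. The curves run through the limit near 10.3356 and 10.5502 without a step, and Krt8 and Krt18 fill 65.7% and 61.1% of the high-score bars.

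The levels of the rule genes themselves chose the spots and are given as a description only. Pooled over spots, Tagln was 11.1-fold and 9.17-fold higher in high-score than in other spots (section A first, here and below), Acta2 7.64-fold and 8.18-fold, Col1a1 7.48-fold and 8.32-fold, Mgp 5.71-fold and 7.59-fold, Eln 3.1-fold and 6.44-fold, and Epcam 2.58-fold and 3.17-fold. Krt8, Krt18, Col3a1 and Anxa4 differed by between 1.80-fold and 2.32-fold. When the spots were chosen by the other rule genes and the gene in question was left out of the score, the folds were smaller. Tagln stood at 7.24-fold and 7.29-fold, Acta2 at 4.64-fold and 7.11-fold, Mgp at 3.29-fold and 3.65-fold, and Eln at 2.28-fold and 5.67-fold. Myl9 stood at 1.83-fold and 1.84-fold, Epcam at 1.47-fold and 2.35-fold, Anxa4 at 1.17-fold and 1.58-fold, and Col1a1 at 1.80-fold and 5.30-fold. Counting intervals are explained below. In section A those of Col1a1 (0.208 to 7.09) and Eln (0.809 to 5.21) held 1, on 2 and 6 UMIs in the chosen spots. Those of Epcam (0.984 to 2.13) and Anxa4 (0.842 to 1.58) did so too. Acta2 had 4 UMIs there (1.17 to 13.6). In section B the intervals of these genes lay above 1. Krt8 (1.09-fold and 1.16-fold), Krt18 (1.06-fold and 1.01-fold) and Col3a1 (0.86-fold and 1.01-fold) were near 1.

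For every other gene, the UMIs of all high-score spots of a section were summed and divided by the UMI total of those spots, and the same was done for the other spots. The fold is the ratio of the 2 levels, given as UMIs per 10000, and its 95% interval is exact and covers counting error only. Genes with at least 100 UMIs in each section, 7625 without the rule genes, were compared, and a gene was called raised when its fold was at least 1.5 in both sections and lowered when it was at most 1/1.5 in both. The spots were chosen from the same counts, spots are not replicates, and 2 sections cannot give a p-value under 0.5 in an exact sign-flip test, so no test was made and all values below are descriptions. By this rule 181 genes (2.37%) were raised and 49 (0.643%) were lowered. In section A alone 567 genes (7.44%) passed the upper limit and in section B alone 728 (9.55%), so that 31.9% of the genes of section A and 24.9% of those of section B were shared. The lower limit was passed by 442 genes (5.8%) in section A and 365 (4.79%) in section B, of which 11.1% and 13.4% were shared. These folds thus repeated between the sections for a minority of genes. The median log2 fold over all compared genes was 0.04 and 0.08. Across genes, which are not independent, the log2 folds of the sections had a Spearman rho of 0.114 over 7620 genes, and of 0.233 over the 2757 genes with at least 1000 UMIs in each section.

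Bile duct genes divided by abundance. None of the 6 compared bile duct genes was raised, which is near the share over all compared genes, 2.37%. Their median log2 fold was 0.13 and 0.18, beside 0.04 and 0.08 over all genes. Among them Anpep, Cdh1, Tm4sf4, Cldn3 and Slc4a2 had folds between 0.81 and 1.37. The claudin Cldn3, a tight junction protein, was at 1.27 UMIs per 10000 in high-score spots against 1.17 in section A and at 1.19 against 1.21 in section B, so its level did not separate the spots. Summed, the 27 named genes of the list were at 1.18-fold and 1.19-fold. The 21 bile duct genes under the minimum of 100 UMIs behaved otherwise when summed, which was done after their values had been seen. They had 65 UMIs in high-score spots of section A and 80 in section B, and were 5.91-fold (4.45 to 7.75) and 6.15-fold (4.76 to 7.85) higher than in the other spots. At least 1 such UMI was present in 27.3% and 30.5% of high-score spots and in 11.1% and 13.5% of the others.

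Spp1 led the sparse bile duct genes. Spp1, or osteopontin, is a secreted phosphoprotein made by cholangiocytes, and it had 19 UMIs in high-score spots of section A and 27 in section B, with levels of 0.153 against 0.00934 and 0.221 against 0.0125 per 10000. The folds were 16.4 (8.74 to 29.9) and 17.7 (10.5 to 29.4), and Spp1 was found in 7.44% and 15.3% of high-score spots. Muc1, a membrane mucin of duct epithelium, was at 8.55-fold and 15.3-fold on 8 and 10 UMIs. Cd24, a surface glycoprotein of ductal and progenitor cells, was at 10.9-fold and 4.78-fold, and the membrane-binding Anxa13 at 4.45-fold and 9.17-fold. Sctr, the secretin receptor, through which secretin drives the flow of duct bile, was at 4.72-fold and 8.60-fold on 3 and 5 UMIs. These named genes were the high ones of the set, and most of their intervals are wide. The defining duct genes Krt19, Krt7 and Sox9 had no UMI in any high-score spot, and had at most 8 UMIs in the other spots of a section, so they could not be read at this depth. With no minimum on UMIs per gene 9 of 23 genes of the list were raised and 2, Krt7 and Sox9, were lowered, where 868 and 2295 of all 13563 genes were.

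Smooth muscle genes showed the same division. Among the 9 compared, Flna alone was raised, where 2.37% of all compared genes were raised. The median log2 fold was 0.21 and 0.50, beside 0.04 and 0.08 over all genes. Flna was not raised with 10% of spots as members, with a score of the epithelial genes alone, without the high-score spots richest in mesothelial genes (mesothelium-rich spots, described at the end, where other spots of that kind stayed in the comparison) or in thinned spots, where Csrp1 was. Flna, or filamin A, crosslinks actin filaments, and its level was 0.226 against 0.111 in section A and 0.287 against 0.112 in section B, or 2.04-fold (1.34 to 3) and 2.55-fold (1.75 to 3.62). Cald1 and Tpm1, which regulate actin and are also made outside muscle, were at 1.02-fold to 1.14-fold. All 9 had a fold over 1 in both sections. Summed, the 25 genes of the list were at 1.19-fold and 1.37-fold. The 16 sparser genes summed to 3.81-fold (2.74 to 5.18) and 6.50-fold (4.98 to 8.4). Myh11, the myosin heavy chain of smooth muscle, was at 15.5-fold (6.65 to 34.2) and 17.0-fold (7.83 to 35.6) on 11 and 13 UMIs. Lmod1, which nucleates actin filaments in muscle, was at 13.4-fold and 27.5-fold on 2 and 6 UMIs, and the intermediate filament gene Des at 4.86-fold and 3.78-fold.

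Endothelial genes of larger vessels were raised in part. Of 13 compared vessel genes 4 were raised, Vwf, Ltbp4, Thbd and Plvap, where 2.37% of all compared genes were raised. The median log2 fold was 0.21 and 0.85, beside 0.04 and 0.08 over all genes. In thinned spots none of the 5 that reached the minimum was raised, and Vwf, under the minimum there, was at 3.13-fold and 3.50-fold. Vwf, the von Willebrand factor stored in endothelial granules, had 24 UMIs at 0.193 per 10000 against 0.0799 in section A and 61 UMIs at 0.5 against 0.0897 in section B. Its folds were 2.42 (1.52 to 3.68) and 5.57 (4.16 to 7.36). Ltbp4, which holds latent TGF-beta in elastic matrix, was at 2.23-fold and 1.88-fold. Thbd, the anticoagulant thrombomodulin, was at 1.56-fold and 2.33-fold, and Plvap, which forms the diaphragms of fenestrae, at 1.76-fold and 1.93-fold, but in section A both intervals reached below 1. Summed, the 26 named genes of the list were at 1.05-fold and 1.11-fold. The 13 vessel genes under the minimum summed to 2.86-fold (1.83 to 4.29) and 3.23-fold (2.15 to 4.7). Among them Cldn5, the endothelial claudin, was at 10.0-fold (3.21 to 27.0) and 24.1-fold (7.43 to 76.0), and Gja5, the connexin of arterial endothelium, at 8.22-fold and 9.71-fold on 4 and 6 UMIs. None of the 10 sinusoidal genes was raised, with a median log2 fold of -0.05 and -0.04, and the sinusoidal receptor Lyve1 was at 1.09-fold and 0.907-fold.

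Fibroblast genes included 5 raised of 10 compared, where 2.37% of all compared genes were raised, and the median log2 fold was 0.51 and 0.91, beside 0.04 and 0.08 over all genes. In spots thinned to 5000 UMIs 5 genes of the list reached the minimum, none was raised, and the median was 0.02 and 0.01, while Gsn, under the minimum there, was at 2.89-fold and 3.12-fold. Without the mesothelium-rich spots Gsn was at 3.61-fold and 2.43-fold. Gsn, or gelsolin, which severs actin filaments, had 50 and 49 UMIs at 0.403 and 0.402 per 10000, against 0.0750 and 0.0784, and its folds of 5.37 (3.88 to 7.30) and 5.12 (3.70 to 6.97) were alike in the sections. S100a6, a small calcium-binding protein, was at 3.21-fold (1.97 to 5.01) and 5.39-fold (3.49 to 8.07). Vim, the intermediate filament of mesenchymal cells, was at 2.09-fold and 2.65-fold, Lgals1, a secreted lectin, at 2.04-fold and 3.18-fold, and Cygb, an oxygen-binding globin also made by stellate cells, at 1.65-fold and 1.87-fold. The abundant Dpt and Serping1 stayed between 0.926-fold and 1.02-fold. Summed, the 30 genes of the list were at 1.03-fold and 1.08-fold. The 20 fibroblast genes under the minimum summed to 2.52-fold (1.75 to 3.54) and 4.37-fold (3.33 to 5.66). Among them the proteoglycan gene Dcn was at 6.22-fold (2.79 to 12.6) and 9.86-fold (5.51 to 16.9) on 10 and 19 UMIs.

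The matrix around these cells followed the fibroblast list in part. Of 10 interstitial matrix genes compared, 4 were raised, against 2.37% of all genes, with a median log2 fold of 0.47 and 0.65, beside 0.04 and 0.08: Sparcl1, a matricellular protein (2.03-fold and 3.48-fold), Col6a2, a chain of beaded-filament collagen (1.53-fold and 2.20-fold), Lox, which crosslinks collagen and elastin (2.14-fold and 1.53-fold), and Mmp2, a gelatinase (1.81-fold and 1.72-fold). Fn1, which hepatocytes make in bulk, was at 0.96-fold and 1.00-fold. Of 5 elastic fibre genes, Efemp2 and Ltbp3 were raised, with a median log2 fold of 0.56 and 0.78. Of 6 basement membrane genes Lamb2, a laminin chain of vessel walls, was raised at 2.05-fold and 2.26-fold, with a list median of 0.39 and 0.63. In thinned spots 1 of 5 interstitial matrix genes (Col6a2), 0 of 1 elastic fibre gene and 0 of 4 basement membrane genes that reached the minimum were raised.

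**Figure D2:**
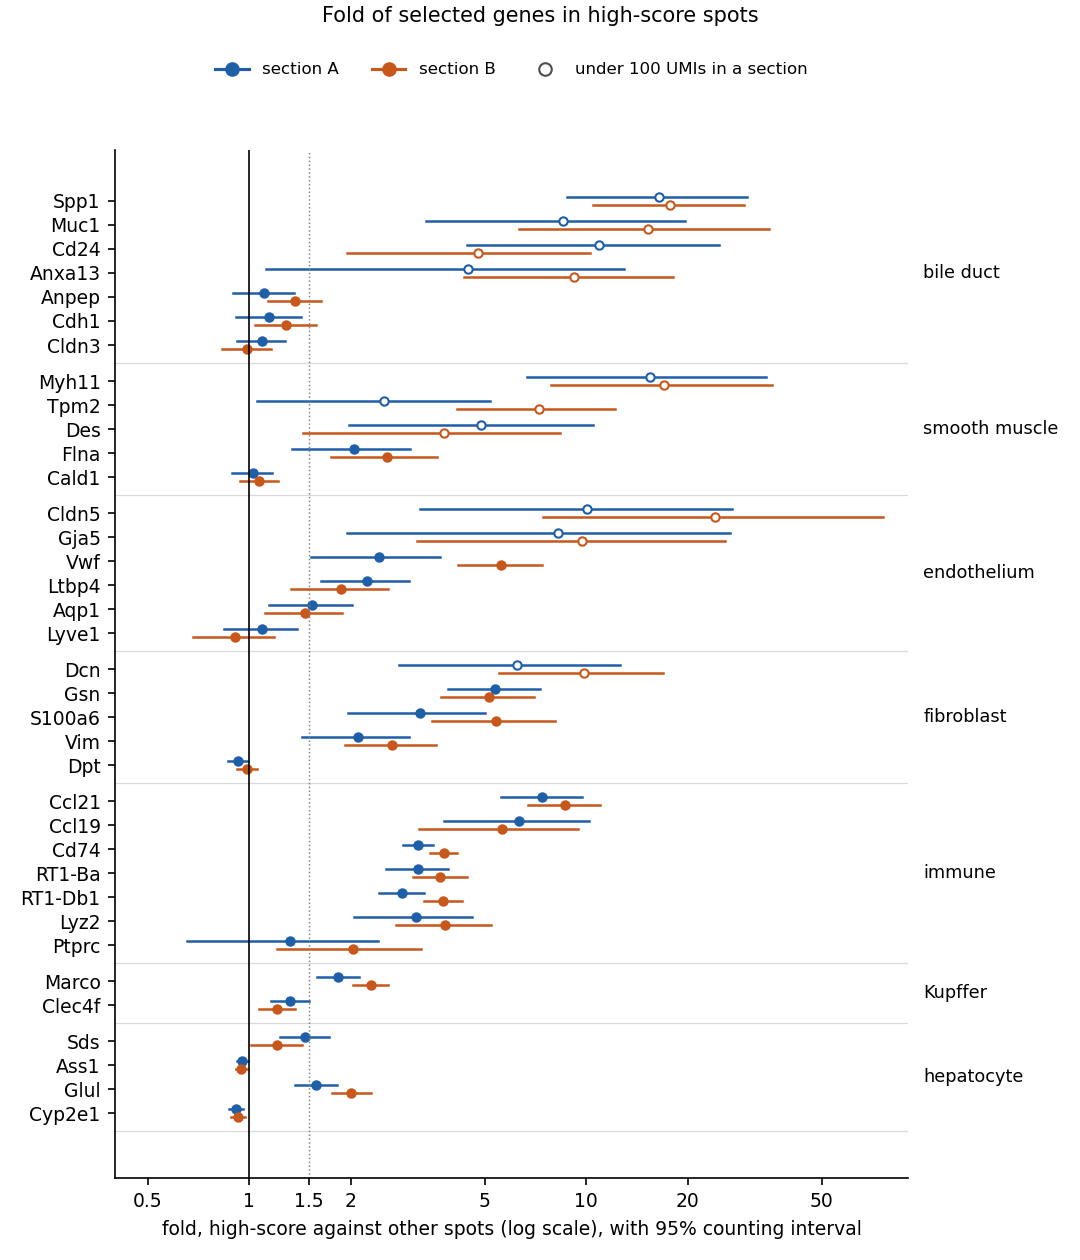
Fold of selected genes in high-score against other spots (x axis, log scale) in section A (blue) and section B (orange), with 95% counting intervals and lines at 1 and at the limit of 1.5; open points are genes under 100 UMIs in a section. Spp1 at 16.4-fold and 17.7-fold and Myh11 at 15.5-fold and 17.0-fold lie far to the right on few UMIs, and Cldn3, Cald1, Lyve1, Dpt, Ass1 and Cyp2e1 lie near 1.

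The highest mean log2 folds of all compared genes outside the score belonged to a pair of chemokines that share the receptor Ccr7. Ccl21, made by lymphatic endothelium and by stroma of lymphoid tissue, had 68 UMIs in high-score spots of section A and 88 in section B. Its level was 0.548 per 10000 against 0.0741, or 7.39-fold (5.56 to 9.70), in section A and 0.721 against 0.0837, or 8.61-fold (6.70 to 11), in section B. It was detected in 20.7% and 24.6% of high-score spots and in 8.86% and 9.75% of the others, which were deeper. Single spots reached 13 and 19 UMIs of Ccl21, and 5 and 6 of the 10 spots with the most were high-score spots. Ccl19, the second ligand, was at 0.177 against 0.0280 (6.32-fold, 3.78 to 10.1) and 0.148 against 0.0262 (5.63-fold, 3.19 to 9.42). Without the mesothelium-rich spots Ccl19 was at 1.43-fold and 2.42-fold and Ccl21 at 5.00-fold and 3.54-fold, and in spots thinned to 5000 UMIs Ccl21 was at 4.64-fold and 3.66-fold. Of 11 chemokine genes compared, 7 were raised, against 2.37% of all genes, with a median log2 fold of 0.65 and 1.1, beside 0.04 and 0.08. The others among the 7 were Cxcl16, Cxcl10, Cxcl1, Cxcl14 and Cxcl9, at 1.54-fold to 1.86-fold in section A and 1.59-fold to 3.11-fold in section B. The count was 4 among spots with at least 5000 UMIs, 3 with 10% of spots as members, and 2 of 5 (Ccl21 and Cxcl9) in thinned spots, with medians of 0.82 and 0.11. The abundant Ccl6 and Cxcl12 were at 1.03-fold to 1.15-fold. Of the lymphatic genes besides Ccl21, Prox1 was at 1.35-fold and 1.56-fold on 5 UMIs in each section, while Pdpn and Mmrn1 had between 0 and 2 UMIs in high-score spots.

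Genes of antigen presentation on MHC class II were raised together. Class II molecules are pairs of alpha and beta chains that show peptides to CD4 T cells, and Cd74, the invariant chain, guides them through the cell. Of 7 genes compared in the list of class II and dendritic cell genes, 6 were raised, where 2.37% of all compared genes were. The median log2 fold was 1.43 and 1.88, beside 0.04 and 0.08 over all genes. Cd74 was at 3.41 UMIs per 10000 against 1.08 in section A and at 4.25 against 1.13 in section B, or 3.16-fold (2.85 to 3.50) and 3.77-fold (3.44 to 4.14). The chain genes RT1-Ba (3.17-fold and 3.69-fold), RT1-Db1 (2.83-fold and 3.76-fold), RT1-Da (2.69-fold and 3.56-fold) and RT1-Bb (2.25-fold and 3.78-fold) stood close to it, each higher in section B. Irf8, a transcription factor of dendritic cells and macrophages, was at 1.86-fold and 2.06-fold. In spots thinned to 5000 UMIs Cd74 was at 1.80-fold and 2.32-fold and RT1-Da at 1.65-fold and 2.37-fold, with 4 genes of the list raised. Without the mesothelium-rich spots, which were picked mostly by the gene Slpi, described below, Cd74 was just under the limit in section A. It was then at 1.5-fold and 2.13-fold, and 2 genes of the list, RT1-Ba and RT1-Da, were raised. The part of that choice in these values was not tested. Cd74 was found in 67.8% and 72.0% of high-score spots and in 63.0% and 62.4% of the other spots, which were deeper. The RT1 genes belong to a family with similar copies, and the split of reads between copies is uncertain for single genes.

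Class II chain genes share a promoter element, the Y box, which binds the factor NF-Y. The promoter windows of the 4 raised chain genes were read because these genes were raised together. Windows run from 250 bases before to 50 bases after the annotated start in RefSeq on the build GRCr8, which is not the build of the counts, and sequences are printed 5′ to 3′ on the strand of the gene. Capitals mark the letters CTGATTGG of the Y box.
RT1-Da, chr20:4515293-4515380, plus strand: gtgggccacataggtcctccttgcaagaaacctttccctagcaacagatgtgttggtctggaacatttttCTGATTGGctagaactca
RT1-Db1, chr20:4560228-4560315, minus strand: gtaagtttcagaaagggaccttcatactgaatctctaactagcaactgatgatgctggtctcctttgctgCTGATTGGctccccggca
RT1-Ba, chr20:4576941-4577028, plus strand: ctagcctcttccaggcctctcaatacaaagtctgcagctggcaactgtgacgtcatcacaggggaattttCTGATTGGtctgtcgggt
RT1-Bb, chr20:4604165-4604252, minus strand: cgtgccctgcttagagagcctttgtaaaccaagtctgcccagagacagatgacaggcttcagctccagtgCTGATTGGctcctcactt
All 4 windows held CTGATTGG, which began 46 to 83 bases before the start. On either strand it was found in 3.50% of 33469 promoter windows. A match of letters is a description and does not show that a factor binds there.

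Other immune genes were raised in part or were too sparse to compare. Of 9 monocyte and neutrophil genes 3 were raised, of 5 T and NK cell genes 1, and of 1 B cell gene none, and no mast cell gene reached the minimum, where 2.37% of all compared genes were raised. The median log2 fold was 0.40 and 0.75 for the monocyte and neutrophil list and 0.41 and 0.90 for the T and NK list, beside 0.04 and 0.08 over all genes. Lyz2, the lysozyme of myeloid cells, was at 0.234 against 0.0750 and 0.369 against 0.0971, or 3.11-fold (2.04 to 4.58) and 3.80-fold (2.72 to 5.2), and in thinned spots at 1.46-fold and 2.59-fold. Plac8, high in monocytes and plasmacytoid cells, was at 2.49-fold and 3.47-fold, and Laptm5, a lysosomal protein of blood cells, at 1.62-fold and 1.68-fold. Gzma, a granule protease of cytotoxic lymphocytes, was raised on 12 and 11 UMIs at 2.07-fold and 1.61-fold, and lost the call with 2.5% or 10% of spots as members, with each other choice of score genes, without the mesothelium-rich spots, with no UMI minimum per spot, with means over spots and in thinned spots. Ptprc, which encodes CD45 on all white blood cells, was at 1.32-fold (0.652 to 2.42) and 2.03-fold (1.2 to 3.24) and did not pass in section A, though it was raised with 2.5% of spots as members, with the score without Krt8 and Krt18, with the mesenchymal genes alone and with means over spots. Cd3d, Cd3e and Cd3g, which encode chains of the T cell receptor complex, had at most 1 UMI each in the high-score spots of a section. Mcpt2, a mast cell protease under the minimum, was at 8.91-fold (4.82 to 15.7) and 7.5-fold (3.16 to 16) on 17 and 9 UMIs.

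Among the 20 raised genes with the highest mean log2 fold were some outside the lists above. Slpi, an inhibitor of neutrophil elastase made by epithelia and mesothelium, was at 1.52 against 0.309 in section A and 1.39 against 0.264 in section B, or 4.93-fold (4.2 to 5.77) and 5.27-fold (4.45 to 6.22), and in thinned spots it was at 2.63-fold and 2.18-fold. Lpl, which splits triglycerides at the vessel wall, was at 4.28-fold (2.79 to 6.36) and 5.40-fold (3.76 to 7.57), at 3.39-fold and 2.97-fold in thinned spots, and at 2.20-fold and 4.08-fold without the mesothelium-rich spots. Adamtsl2, a secreted protein of the microfibril matrix, was at 3.82-fold (2.41 to 5.83) and 5.73-fold (3.86 to 8.29), in thinned spots at 3.05-fold and 1.55-fold, and without the mesothelium-rich spots at 2.47-fold and 3.17-fold. Anxa1, a phospholipid-binding protein of myeloid and epithelial cells, was at 3.23-fold and 3.65-fold. The others were Spata7, Fxyd5, Kifc3 and AABR07060872.1. The 10 lowest of the 49 lowered genes were Mcf2l, Osgepl1, Tmem189, Kpna2, Dnajc25, Abca3, Smoc1, Snrpa, LOC100361934 and Tex10, each with 1 to 8 UMIs in the high-score spots of a section. The interval of each of the 10 reached over 1 in at least 1 section. None of the lowered genes was in any of the 24 lists.

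**Figure D3:**
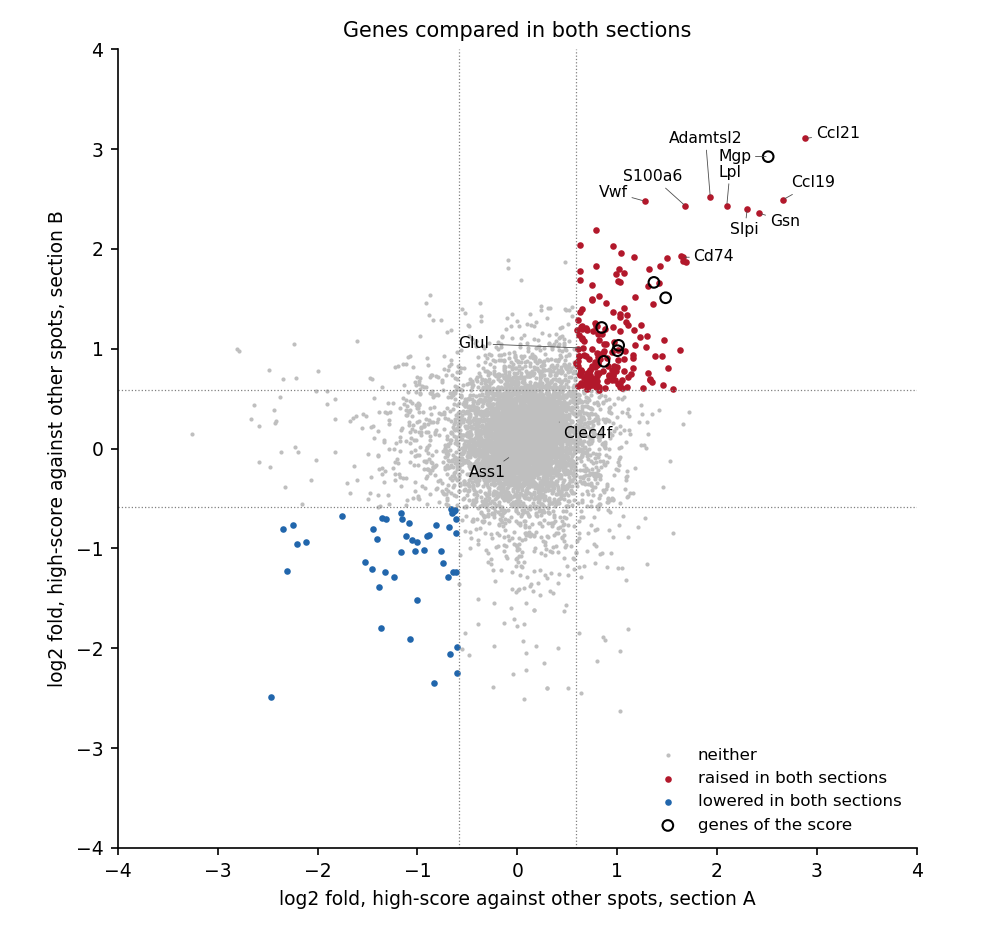
Log2 fold in high-score against other spots in section A (x axis) and section B (y axis) for the compared genes; red points are the 181 raised genes, blue the 49 lowered genes, grey the rest and open circles the rule genes that passed the minimum. Dotted lines mark the limit of 1.5-fold, and 5 genes without a UMI in the high-score spots of a section are not drawn. Ccl21, Ccl19, Gsn, Slpi, Lpl and Adamtsl2 stand apart at the upper right, and the cloud of other genes shows little common direction.

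Hepatocyte genes barely separated the spots. Of all compared genes 2.37% were raised and 0.643% lowered, with a median log2 fold of 0.04 and 0.08. None of 20 periportal genes was raised or lowered, with a median log2 fold of 0.07 and 0.04. The urea cycle gene Ass1 was at 0.95-fold in both sections, and Sds, the serine dehydratase of the innermost periportal cells, at 1.46-fold (1.23 to 1.73) and 1.21-fold (1.01 to 1.43). Of 15 pericentral genes Glul alone was raised, while Cyp2e1, a cytochrome of pericentral cells, was at 0.91-fold and 0.93-fold. Glul, the glutamine synthetase of the hepatocytes around the central vein, was at 1.67 against 1.06 in section A and at 1.98 against 0.987 in section B, or 1.58-fold (1.37 to 1.82) and 2.01-fold (1.76 to 2.29). It was found in 59.5% and 48.3% of high-score spots and in 60.9% and 59.7% of the others. Glul was no longer raised in spots thinned to 5000 UMIs (1.03-fold and 1.16-fold), among spots with at least 5000 UMIs (1.48-fold and 1.96-fold), with 2.5% of spots as members (1.34-fold and 2.75-fold), or without the mesothelium-rich spots (1.38-fold and 1.71-fold). Spots chosen by the mesenchymal genes alone had Glul at 3.03-fold and 4.48-fold, and spots chosen by the epithelial genes alone had it at 0.80-fold and 0.62-fold, so the direction of Glul depended on which genes of the score chose the spots.

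The lists of resident macrophages and stellate cells each had 1 raised gene. Of 11 genes of Kupffer cells, the macrophages of the sinusoid, Marco, a scavenger receptor, was raised at 1.84-fold (1.59 to 2.11) and 2.30-fold (2.04 to 2.58), but not with any other choice of score genes or without the mesothelium-rich spots, and Clec4f, which marks Kupffer cells in rodents, was at 1.32-fold and 1.21-fold. Summed, the 11 named genes of the Kupffer list were at 1.32-fold (1.25 to 1.39) and 1.35-fold (1.28 to 1.42). The 15 named genes of the stellate list summed to 1.03-fold and 1.11-fold. The median log2 fold was 0.34 and 0.29 for the Kupffer list and 0.14 and 0.16 for the stellate list. Over all compared genes it was 0.04 and 0.08, and 2.37% of them were raised. Of 12 genes of stellate cells, the vitamin A storing pericytes of the sinusoid, Tagln2 was raised at 1.52-fold and 2.44-fold, but not with 10% of spots as members, among spots with at least 5000 UMIs, with no UMI minimum per spot, in thinned spots or with folds taken over the median fold, while Lrat, which esterifies vitamin A, was at 0.89-fold and 1.15-fold.

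The differences were concentrated in the spots with the highest scores. Spots were ranked by score and pooled into 7 bins, and the top 1% held 25 spots in section A and 24 in section B, with median UMI counts of 6671 and 5967.5. Ccl21 was at 1.65 and 2.60 per 10000 in this bin, at 0.391 and 0.361 in the next, down to 2.5%, and at 0.064 and 0.067 in the lower 50% of spots. Cd74 was at 6.95 and 10.9 in the top 1% and at 0.935 and 0.905 in the lower 50%. The sparse bile duct genes summed to 1.35 and 1.49 in the top 1%, to 0.410 and 0.357 between 2.5% and 5%, and to 0.072 and 0.103 in the lower 50%. The sparse smooth muscle genes were at 1.35 and 2.49 in the top 1% and at 0.219 and 0.193 between 2.5% and 5%. Krt18, which weighs most in the score, showed no such peak. It was at 4.10 and 4.72 in the top 1% and 4.02 and 4.27 between 2.5% and 5%. Krt18 also helped to rank the spots, so its course along the bins was in part set by the ranking. Glul was at 1.95 and 3.56 in the top 1% and at 1.06 and 0.913 in the lower 50%. Between 2.5% and 5% Glul was at 1.86 and 1.37. Alb, the albumin gene, was at 907 and 828 in the top 1% and at 995 and 991 in the lower 50%. The top bin has the shallowest spots, and the part of their depth in these values was not tested.

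**Figure D4:**
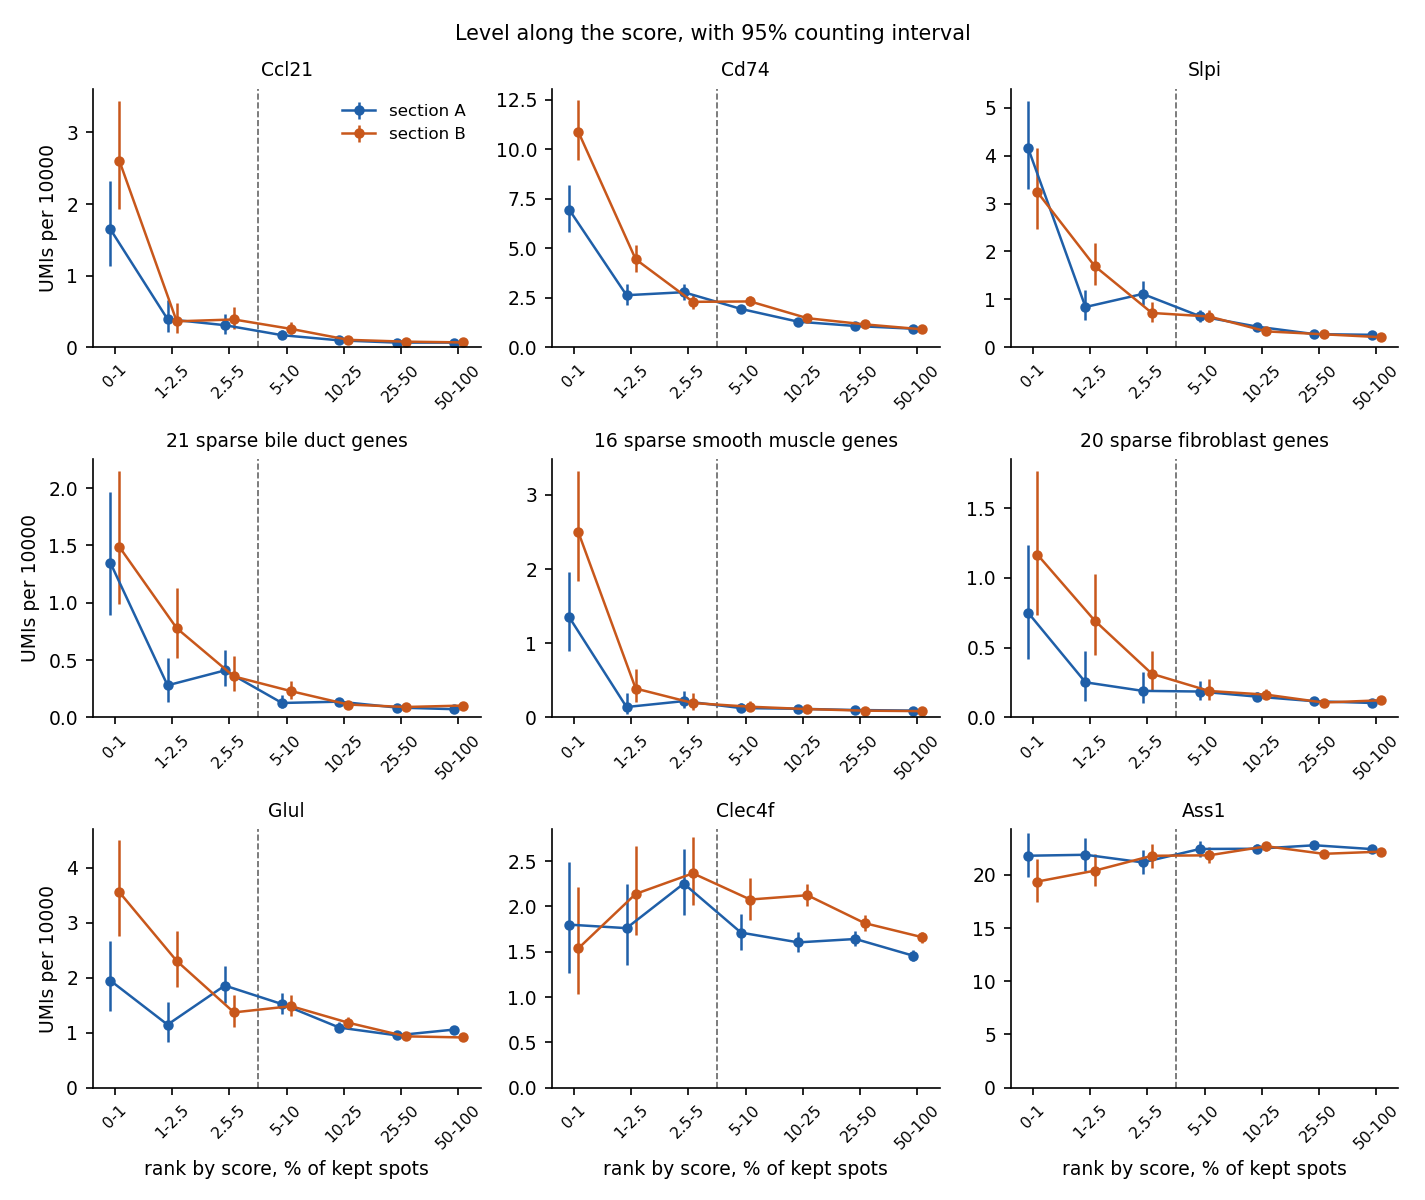
Level in UMIs per 10000 (y axis) along 7 bins of spots ranked by score, in percent of kept spots (x axis), for section A (blue) and section B (orange), with 95% counting intervals and the limit of 5% as a dashed line. Ccl21, Cd74, Slpi and the sparse duct, muscle and fibroblast genes peak in the top 1% of spots in both sections. Ccl21 reached 1.65 and 2.60 there. Ass1 and Clec4f show no peak there. Glul, also highest in the top 1% in both sections, was at 1.95 and 3.56 there.

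Epcam, the contractile genes, Eln and Mgp all belong to the score, so their joint detection in high-score spots was in part set by the choice and is given as a description. A UMI of Epcam together with one of a contractile gene was found in 18 high-score spots (14.9%) of section A and 23 (19.5%) of section B, against 4.58% and 5.95% of the other spots. Spots with Epcam, a contractile gene and Eln or Mgp at once numbered 10 (8.26%) and 16 (13.6%), against 1.22% and 1.61%. High-score spots with a contractile UMI, compared with those without, had 4.63-fold (2.53 to 9.02) and 4.67-fold (2.78 to 8.23) more Ccl21, 2.44-fold and 2.22-fold more of the class II and dendritic list, and 6.40-fold (1.83 to 34.3) and 4.51-fold (1.76 to 13.6) more Spp1. They were also somewhat deeper, with medians of 11988 against 9626 UMIs in section A and 10123 against 9458 in section B. In the same split the whole bile duct list differed less than Spp1, at 1.12-fold and 1.199-fold. The smooth muscle list was at 1.17-fold and 1.24-fold. Krt18 was at 0.82-fold and 0.80-fold, which the limit on the summed score by itself favours. The 37 and 49 high-score spots with an Epcam UMI had 2.35-fold and 2.04-fold more Ccl21, 2.93-fold and 2.31-fold more Gsn and 4.61-fold and 2.69-fold more Spp1 than the rest. The whole bile duct list was at 1.03-fold (0.89 to 1.201) and 1.31-fold (1.13 to 1.51) in these spots. The smooth muscle list was at 1.099-fold and 1.18-fold in these spots. Vwf was at 0.82-fold and 0.93-fold in them, the vessel endothelium list at 0.98-fold and 0.93-fold, and Col3a1 at 0.79-fold and 0.86-fold, while Tagln (0.64-fold and 2.91-fold) and Mgp (0.99-fold and 1.62-fold) differed in direction between the sections. Their median depth was 12775 against 8751.5 UMIs in section A and 10123 against 9848 in section B.

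Levels were also set against each other across high-score spots, as a description. Over 121 and 118 spots the class II genes had a Spearman rho of 0.64 and 0.63 with Slpi, of 0.51 and 0.50 with Eln and Mgp, and of 0.43 and 0.37 with the contractile genes. With the keratins the class II genes had a rho of -0.24 and -0.33. The collagens had a rho of 0.07 and 0.14 with the class II genes, of -0.10 and 0.04 with the contractile genes, of -0.09 and 0.02 with Eln and Mgp, and of -0.13 and -0.03 with Ccl21 and Ccl19. The spots share a library, their levels share the UMI total as denominator, and a limit on the summed score by itself sets its parts against each other.

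The genes that chose the spots made a difference to which spots were chosen, and for the hepatocyte lists to the direction of the median fold. Scores of the 7 mesenchymal genes alone and of the 4 epithelial genes alone each gave 121 and 118 spots. Of these, 13 (10.7%) and 12 (10.2%) were common to both ways. Each set held 5.01% of all kept spots, the share that sets unrelated to each other would have in common. Median UMI counts were 11031 in the mesenchymal and 11166 in the epithelial set of section A. In section B they were 10168.5 and 9854. The part of depth in the shared spots was not tested. Of the high-score spots, 38.8% and 37.3% were in the mesenchymal set and 62.0% and 63.6% in the epithelial set. In spots chosen by mesenchymal genes, the sparse bile duct genes, none of which was used, were at 3.94-fold (2.86 to 5.34) and 3.55-fold (2.59 to 4.76). In spots chosen by epithelial genes, the sparse smooth muscle genes were at 2.45-fold (1.67 to 3.49) and 3.11-fold (2.16 to 4.35), and Ccl21 at 4.57-fold and 4.37-fold. Cd74 was at 3.89-fold and 5.16-fold in the mesenchymal spots and at 1.90-fold and 2.07-fold in the epithelial spots. The pericentral list had a median log2 fold of 0.30 and 0.30 in the mesenchymal spots and of -0.28 and -0.28 in the epithelial spots, and the periportal list of -0.12 and -0.19 against 0.11 and 0.11. Clec4f was at 0.99-fold and 0.90-fold against 1.30-fold and 1.19-fold.

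**Figure D5:**
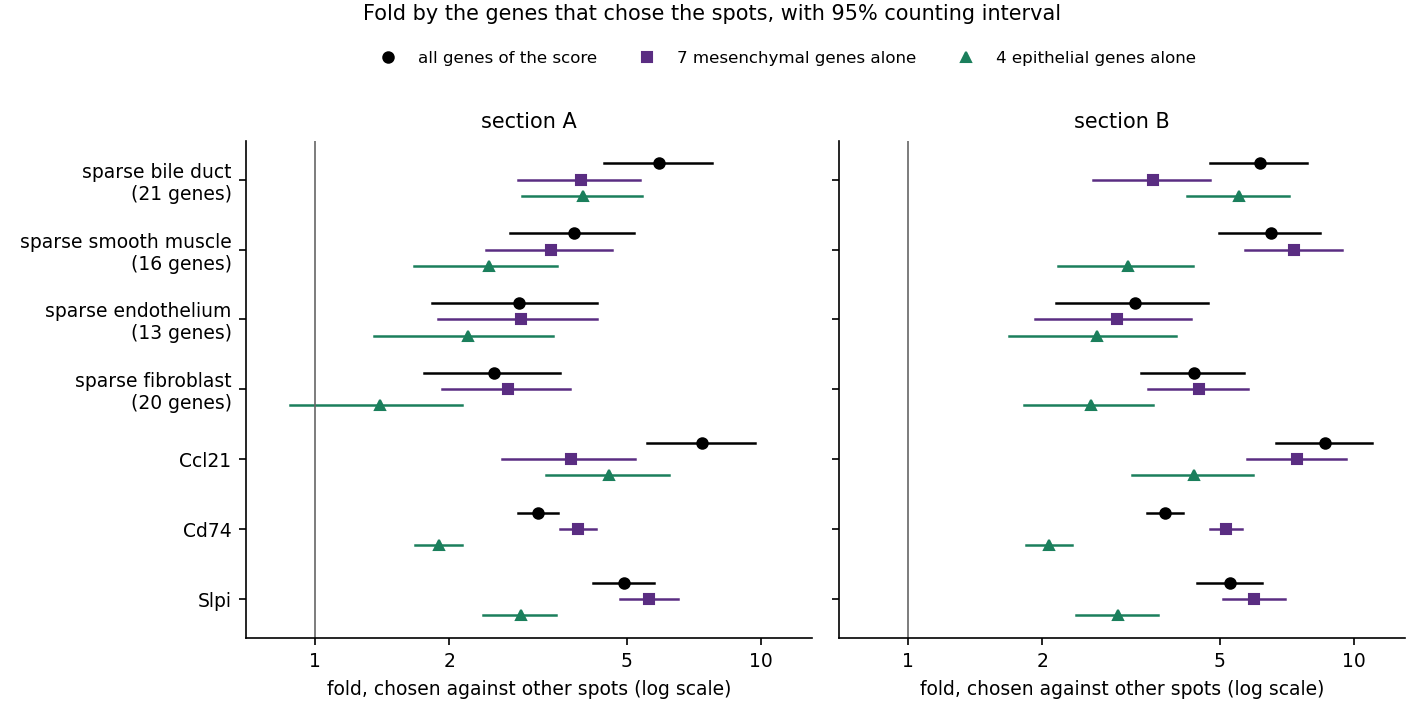
Fold in the chosen against the other spots (x axis, log scale) with 95% counting intervals for the summed sparse genes of 4 lists and for Ccl21, Cd74 and Slpi, when the top 5% of spots were chosen by all genes of the score (circles), by the 7 mesenchymal genes (squares) or by the 4 epithelial genes (triangles). All points lie above 1 in both sections, though the interval of the sparse fibroblast genes in epithelial spots of section A reaches 0.88, and Cd74 stands at 3.89-fold and 5.16-fold in the mesenchymal against 1.90-fold and 2.07-fold in the epithelial spots.

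High-score spots overlapped with spots of other kinds. Each comparison set was the 5% of spots richest in a gene or list, so that 5.01% of all kept spots belong to it. The mesothelium list, which covers the liver capsule, had 18.2% of the high-score spots of section A and 25.4% of section B in its set. Most UMIs of the list came from Slpi, which epithelia also make. Its defining genes had few UMIs in high-score spots, 4 and 3 of Msln and at most 1 each of Wt1, Upk3b and Upk1b, and the 9 genes of the list under the minimum summed to 2.63-fold (1.32 to 4.76) and 4.31-fold (1.77 to 9.16) on 12 and 8 UMIs. In 1 alternative the 22 and 30 high-score spots of this set were left out, and the comparison spots were kept as they were. This choice by itself lowered Slpi. Class II genes had a rho of 0.64 and 0.63 with Slpi across high-score spots. The part of the choice in their levels was not tested. Slpi was then at 0.81-fold and 1.12-fold, Cd74 at 1.5-fold and 2.13-fold, Ccl19 at 1.43-fold and 2.42-fold, and Ccl21 at 5.00-fold and 3.54-fold. Over all 5 immune lists 3 genes were then raised, in place of 10 of 22 compared. Among all genes 104 were then raised, where 7612 with the rule genes reached the minimum, in place of 181 (2.37% of those compared). Spots rich in Glul held 13.2% and 10.2% of the high-score spots, spots rich in Kupffer genes 14% and 7.63%, spots rich in periportal genes 5.79% and 11.9%, spots rich in pericentral genes 9.92% and 7.63%, and spots rich in red blood cell genes 9.09% and 7.63%. High-score spots are shallower, and the part of depth in these overlaps was not tested.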

How the data were processed

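UMI counts per gene and spot were analysed for 2 Visium sections of Wistar rat liver, with 34449562 UMIs in section A and 34827603 in section B. Per the labels and the study's methods, the authors sequenced the libraries on a NovaSeq, processed them with Space Ranger 1.1.0 against a custom rat reference, and deposited raw counts without normalization. The deposited counts of the 32883 listed genes were summed by symbol (30248 symbols). The submitters' notes also name Cell Ranger 3.1.0, used for the other libraries, which were not analysed here.

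Spots with at least 2000 UMIs were kept, and the 5% with the highest score (rounded up) were taken in each section. Levels are pooled UMIs per 10000, folds are ratios of levels, and intervals are exact conditional binomial intervals at 95%, which cover counting error only. No test was made. Genes needed at least 100 UMIs in each section. The text names the rule genes, up to 4 highest and 2 lowest of each list, fixed defining markers, and the 20 highest and 10 lowest called genes. The further genes named from lists, the sums of sparse genes, the splits and the bins were chosen after values were seen. The members and the gene lists were chosen with earlier results of these data known. Of 416 list symbols, 23 are not named in the gene list. The values of 1 list gene are not reported here. Code was tested on simulated counts. Promoter windows came from RefSeq (GRCr8), where all 4 genes matched by symbol. Python 3.11.15, numpy 2.4.6, scipy 1.17.1, pandas 2.3.3 and matplotlib 3.10.9 were used. For each result 17 alternatives were planned, and 1 was added after the level of Slpi was seen.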

Additional observations from a re-analysis of the deposited data

Results flagged for a closer look

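Spots under 2000 UMIs were left out of every comparison, and are given here because they too held UMIs of the rule genes. In section A 24 such spots, with 27324 UMIs in all, held 18 UMIs of the rule genes, or 6.58762 per 10000 (95% counting interval 3.90 to 10.4), beside 5.72 in the other kept spots and 11.9 in the high-score spots. In section B 49 such spots, with 42776 UMIs, held 32, or 7.48083 per 10000 (5.12 to 10.6), beside 5.81 and 12.7. Both intervals hold the level of the other spots, and at this depth a difference from them was not detectable. With no UMI limit 179 genes were raised, of which 148 were among the 181.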

How the results depend on the processing

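Of 108 recomputed counts over 6 results and 18 alternatives, 68 stayed within 1.5 times the count reported (181 genes raised, 49 lowered, and 0 bile duct, 1 smooth muscle, 5 fibroblast and 10 immune genes raised). With 2.5% of spots as members 339 genes were raised, 179 lowered and 3 smooth muscle genes raised, and with 10% the counts were 82, 14 and 0. The epithelial genes alone gave 114 raised, 74 lowered, 0 smooth muscle and 5 immune genes. Spots thinned to 5000 UMIs gave 52 raised, 14 of them among the 181, and 0 fibroblast genes, over the 5405 genes that then reached the minimum. Means over spots gave 75 lowered, and a limit of 2-fold gave 39 raised and 12 lowered. A gene minimum of 50 UMIs gave 315 raised, 109 lowered, 1 bile duct gene (Spp1), 4 smooth muscle and 8 fibroblast genes. A minimum of 500 gave 24, 1, 0 smooth muscle, 0 fibroblast and 5 immune genes, and a minimum of 1 gave 868, 2295, 9 bile duct, 9 smooth muscle, 11 fibroblast and 23 immune genes. Each section alone gave 567 to 728 raised, 365 to 442 lowered and 1 to 2 smooth muscle genes. Without the high-score spots in the mesothelium set, an alternative chosen after seeing the data, 104 genes were raised, 106 lowered, 0 smooth muscle and 3 immune. Fewer genes or spots entered under the higher minimum, the thinning and the last setting, and otherwise the cause was not tested. Scores without Krt8 and Krt18 and of the mesenchymal genes alone kept all 6 counts within 1.5 times, with 80 of 190 and 82 of 192 raised genes among the 181. Of the rule genes, Col3a1 in section A turned to 0.86-fold when the other genes chose the spots. The folds of Ccl21, Gsn, Lpl and Vwf stayed over 1.5 in both sections in the 12 alternatives that could change a fold, and Ccl21 lay between 3.54-fold and 12.6-fold. High-score and other spots were compared within each section, which makes 2 pairs. In an exact sign-flip test 2 pairs cannot give a p-value under 0.5, so no paired test was made.

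Depth limits these data: 2 sections, shallow high-score spots and few UMIs of duct and muscle genes leave single sparse genes with wide intervals. Cells of different kinds share a spot, so fewer cells of a kind and less RNA per cell cannot be told apart. Positions and images were not used here, and capsule, central veins and portal tracts were not told apart.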

Other observations

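Genes of TGF-beta signalling, which drives matrix deposition, were raised in part. Of 10 compared, 4 were raised, where 2.37% of all compared genes were. The median log2 fold was 0.22 and 0.70, beside 0.04 and 0.08 over all genes. In spots thinned to 5000 UMIs 6 reached the minimum, none was raised, and the median was -0.09 and 0.04. The ligand Tgfb1 was at 0.177 UMIs per 10000 against 0.0639 in section A and 0.164 against 0.0772 in section B, or 2.77-fold (1.70 to 4.31) and 2.12-fold (1.28 to 3.35). Ccn2, a matricellular target of the pathway, was at 1.55-fold (0.92 to 2.46) and 3.22-fold (2.34 to 4.33). The latency proteins Ltbp4 and Ltbp3, also counted in the vessel and elastic fibre lists above, were the other raised genes. The receptor Tgfbr1 was at 0.75-fold and 1.04-fold and the hepatocyte-expressed Tgfbi at 0.86-fold and 1.00-fold. None of the compared receptors and Smads (Tgfbr1, Tgfbr3, Smad3 and Smad7) was raised, and Tgfbr2, under the minimum, was at 3.46-fold (1.33 to 7.64) and 1.92-fold (0.381 to 6) on 7 and 3 UMIs.

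Genes of Notch signalling, which patterns bile ducts and arteries, were sparse. Jag1, the ligand of portal mesenchyme and vessels, was at 3.99-fold (1.83 to 7.80) and 3.49-fold (1.53 to 7) on 10 and 9 UMIs, under the minimum for comparison. Dll4, the ligand of arterial endothelium, was raised at 1.62-fold (0.763 to 3.06) and 2.27-fold (1.11 to 4.2). Of 4 compared genes Dll4 was the only one raised, where 2.37% of all compared genes were. It was not raised in thinned spots, without the mesothelium-rich spots, with no UMI minimum per spot, with means over spots, or with scores without Krt8 and Krt18 or of the mesenchymal genes alone. Hes1, a target of the pathway, was at 1.21-fold and 1.09-fold. The 10 named nerve genes together were at 1.56-fold (0.86 to 2.62) and 1.80-fold (1.07 to 2.87) on 15 and 19 UMIs, with none of them compared. The 10 named mast cell genes together were at 3.53-fold (2.34 to 5.14) and 3.36-fold (2.14 to 5.06), led by Mcpt2. Of 4 compared red blood cell genes Alas2, the heme synthesis enzyme of erythroid cells, was raised at 3.1-fold (1.6 to 5.52) and 1.98-fold (0.835 to 4.04) on 13 and 8 UMIs, and Hba-a2 was at 1.52-fold and 1.21-fold. In thinned spots none of 3 was raised, and with 2.5% of spots as members all 4 were.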
